A study of Mus musculus with 8 samples.

Results

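The genes that move serotonin across membranes, store it, break it down and receive its signal were examined in the mouse pineal gland. They comprised the plasma membrane transporter Slc6a4, the vesicular transporters Slc18a1 and Slc18a2, the monoamine oxidases Maoa and Maob, the receptors Htr2c, Htr1b and Htr2b, and Tph2, the tryptophan hydroxylase of serotonergic neurons. These 9 genes were chosen by name, and each had a row among the 53710 genes of the table. RNA-seq was made from 4 wild type (WT) libraries (Normal-11, Normal-21, Normal-22 and Normal-23) and from 4 libraries of 5xFAD mice (5xFAD-1 and 5xFAD-2, then 5xFAD-3 and 5xFAD-21), each a pool of glands from 5 to 7 male mice that were 5 months old and were taken 0.5 h after lights on. 5xFAD mice carry mutant human APP and PS1 transgenes, whose Thy1 promoter is mainly active in neurons. WT mice were C57BL/6 from another supplier, so that supplier and genotype cannot be told apart. Values below follow this order of libraries in both groups. The question was which transcripts differ between the glands of the 2 genotypes.

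Serotonin is an intermediate of the pineal gland's main product. Pinealocytes make it from tryptophan with Tph1 and Ddc, acetylate part of it at night with Aanat on the way to melatonin, and release or oxidise the rest. Elsewhere, Slc6a4 takes serotonin up into serotonergic neurons, platelets and mast cells, Slc18a1 and Slc18a2 load it into vesicles or granules, and the monoamine oxidases on the outer mitochondrial membrane inactivate it. The receptors lie at the cell surface, where Htr2c and Htr2b couple mainly to phospholipase C and Htr1b lowers cAMP.

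Values are FPKM, fragment counts scaled to transcript length and library size, so that levels can be compared between genes per length. Single fragments could be read from the steps between low values, and 1 fragment on 1 kb of transcript was worth 0.0568 to 0.0933 FPKM in the 8 libraries. It was worth least in 5xFAD-1, 5xFAD-2 and 5xFAD-3 (0.0568 to 0.0593), against 0.0741 to 0.0933 in the WT libraries and 5xFAD-21. Depth therefore differed between the groups. The summed pinealocyte marker level was high in both groups. It was 2438, 2430, 5243 and 3457 FPKM in the WT libraries and 5227, 4475, 3503 and 3761 in the 5xFAD libraries. In a check of the labelled sex, Xist was at 13.3 FPKM in Normal-22 and at most 0.0404 in the other 7 libraries, while the Y-linked Ddx3y was at 32.0 to 59.4 in all 8. Normal-22 therefore went against its label in this respect, and Maoa, Maob and Htr2c are X-linked. In pooled tissue, fewer cells of a type and less RNA per cell cannot be told apart.

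The members spanned a wide range of levels, which the plot of all 9 genes by library shows. By mean FPKM over the 8 libraries the order was Htr2c, Maob, Maoa, Htr2b, Htr1b, Slc6a4, Slc18a1, Slc18a2 and Tph2. Maob lay above Maoa, Maoa above Htr2b and Htr2b above Htr1b in 8 of 8 libraries. The neighbours further down crossed, since Htr1b exceeded Slc6a4 in 5 of 8 libraries, Slc6a4 exceeded Slc18a1 in 6 of 8 and Slc18a1 exceeded Slc18a2 in 5 of 8, with mean log2 differences of 0.23, 0.41 and 0.26 that were smaller than their SDs of 1.09, 1.00 and 0.83. Htr2c exceeded Maob in 7 of 8 libraries, with a mean log2 difference of 0.38 (SD 1.58).

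**Figure D1:**
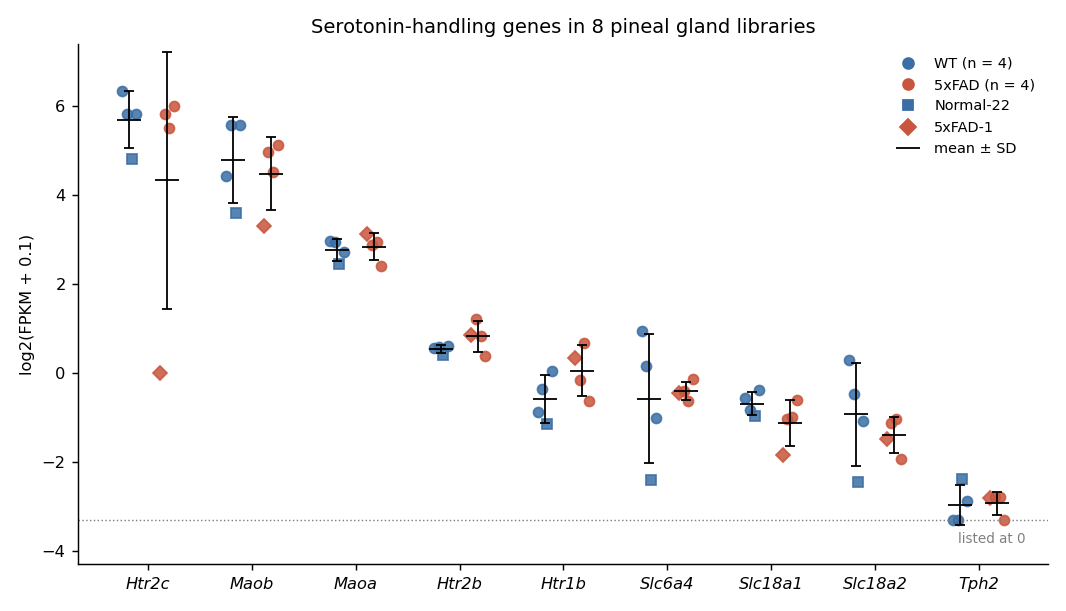
Level of each member as log2(FPKM + 0.1) in the 4 WT (blue) and 4 5xFAD (red) libraries, with black bars for the group mean ± SD on that scale. Htr2c in 5xFAD-1 (diamond) lies near 0, far below the other 7 libraries, and Slc6a4 and Slc18a2 are lowest in Normal-22 (square).

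No member passed the test for a difference between the genotypes. Group means were compared with limma on log2(FPKM + 0.1) over the 13094 protein-coding genes with a mean of at least 1 FPKM, a filter that 4 of the 9 members passed (Htr2c, Maob, Maoa and Htr2b). Of these, 0 of 4 had an adjusted p under 0.05 and 0 of 4 an unadjusted p under 0.05, against 0.0382% and 7.95% of all genes tested. At the unadjusted threshold 4.60% of all genes were higher and 3.35% lower in 5xFAD. The groups overlapped for all 4, while they did not overlap for 4.34% of all genes. Without the filter, 0 of 9 members passed either threshold, against 0.0433% and 7.68% of 18491 genes. The median log2 fold change of the 4 tested members was -0.12, beside -0.01 over all genes tested.

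**Figure D2:**
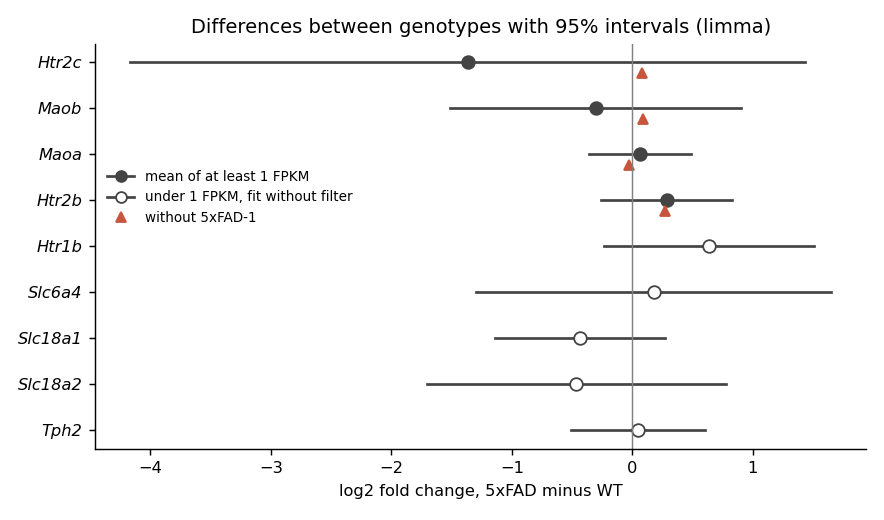
Log2 fold change (5xFAD minus WT) of each member with its 95% interval from limma, filled for the 4 members that passed the filter and open for the 5 from the fit without it. Every interval spans 0, and without 5xFAD-1 (triangles) the values of Htr2c and Maob move to 0.08 and 0.09.

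Htr2c, the receptor with the highest level, was set apart by 1 library. The gene (ENSMUSG00000041380.13) lies on chromosome X of GRCm38 from 146962513 to 147197277 on the plus strand. Its FPKM were 80.6, 56.4, 28.0 and 57.0 in the WT libraries and 0.902, 56.2, 45.6 and 64.0 in those of 5xFAD. 5xFAD-1 stood far below all others, and the other 3 5xFAD libraries lay within the WT range. The WT mean was 55.5 ± 21.5 and the 5xFAD mean 41.7 ± 28.2 (SD, n = 4 each), with a log2 fold change of -1.37 (SE 1.23, 95% interval -4.17 to 1.43, adjusted p = 0.78 from limma). Without 5xFAD-1 it was 0.08 (SE 0.33, 95% interval -0.68 to 0.84, adjusted p = 0.967), and without Normal-22 it was -1.66. Without both it was -0.22, so that its size rested on 5xFAD-1 and its sign on which libraries entered.

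Choroid plexus transcripts moved with Htr2c across these libraries. Htr2c is known for its high level in the epithelium of the choroid plexus, the tissue that secretes cerebrospinal fluid and lies close to the pineal recess. Of 15 markers of that epithelium, 13 were lowest in 5xFAD-1, where their summed level was 472 FPKM, against 2827 to 7746 in the other libraries. Normal-22, second lowest for Htr2c, was among the lowest pair for 12 of the 15. Enpp2, a lysophospholipase secreted by the epithelium, was at 95.8 FPKM in 5xFAD-1 and 2073 to 6058 elsewhere. Ttr, the thyroxine carrier that defines the tissue, was left out of the 15 because each 5xFAD library has it at 0, also the 3 in which the other markers were high. Relative to the mean of the 15 markers on the log2 scale, Htr2c stood at -0.97 to -0.32 in WT, at -3.08 in 5xFAD-1 and at -0.99 to -0.72 in the other 5xFAD libraries. The part of choroid plexus tissue in the Htr2c values was not tested.

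**Figure D3:**
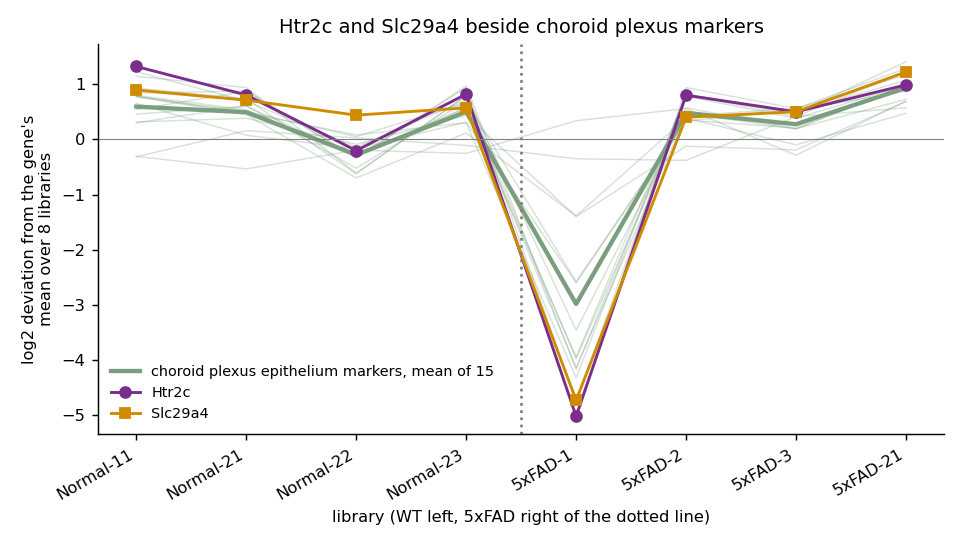
Log2 deviation of Htr2c, Slc29a4 and 15 choroid plexus markers (thin lines, thick line their mean) from each gene's mean over the 8 libraries. In 5xFAD-1 Htr2c, Slc29a4 and 13 of the 15 markers reach their lowest value.

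Slc29a4 encodes the plasma membrane monoamine transporter, a carrier that moves serotonin at high capacity and low affinity. It had the highest mean of the transporters listed for serotonin, and its levels were 14.5, 12.7, 10.5 and 11.6 FPKM in the WT libraries and 0.198, 10.3, 11.02 and 18.2 in the 5xFAD libraries. As for Htr2c, 5xFAD-1 was the low library and the others overlapped (log2 fold change -1.30, SE 1.14, adjusted p = 0.777 from limma). By Pearson r of log2 values over the 8 libraries, the genes most like Htr2c among 13039 searched were Prlr (r = 0.998), the prolactin receptor and one of the 15 markers, Slc28a3 (0.995), a nucleoside carrier, and Gmnc (0.995), a regulator of multiciliated cells. Without 5xFAD-1 these r were 0.966, 0.905 and 0.900. They are descriptions over 8 libraries, which differ in tissue makeup.

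The 250 bases before the RefSeq start of Htr2c (GRCm38.p6, chrX:146962263-146962512, plus strand) are shown because this gene had the widest range among the members. Binding motifs were searched on both strands, namely AGATAA of the GATA family, TAATCC of the pineal homeobox factors, CACGTG of the clock factors, TGACGTCA of factors that answer to cyclic AMP, GGGCGG of the Sp family and TATAAA of the core promoter. None of these occurred in the window, beside 9.99%, 6.25%, 6.02%, 1.55%, 32.7% and 12.4% of 32851 promoter windows of this length.
Htr2c: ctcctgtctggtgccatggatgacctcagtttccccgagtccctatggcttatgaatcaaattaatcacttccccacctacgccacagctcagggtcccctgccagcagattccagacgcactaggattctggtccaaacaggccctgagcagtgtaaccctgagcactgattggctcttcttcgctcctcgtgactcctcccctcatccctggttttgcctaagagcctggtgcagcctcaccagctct

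The other receptors were low. Htr2b (ENSMUSG00000026228.6, chromosome 1 from 86099026 to 86111970, minus strand), which is known for its part in heart valves and vessels, was at 1.37, 1.39, 1.22 and 1.42 FPKM in the WT libraries and at 1.71, 2.22, 1.68 and 1.20 in the 5xFAD libraries. The first 3 of the 5xFAD values lay above every WT library, and that of 5xFAD-21 lay below all of them. Only about 31.1 to 77.9 fragments a library stood behind these values. The means of 1.35 ± 0.088 (SD, n = 4) and 1.70 ± 0.415 (SD, n = 4) gave a log2 fold change of 0.29 (SE 0.24, 95% interval -0.26 to 0.83, adjusted p = 0.763 from limma). Without 5xFAD-21 the log2 fold change was 0.43 (adjusted p = 0.681), and without 5xFAD-2 it was 0.16 (adjusted p = 0.915). Htr2b lies inside Psmd1, a proteasome subunit gene on the other strand at 42.3 to 57.4 FPKM. Whether the authors' counting used strand is not given in the sources used here, so reads of both genes may be mixed.

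Htr1b, a receptor that restrains transmitter release from nerve endings, was read from about 20.2 to 119.4 fragments a library. The gene (ENSMUSG00000049511.5, chromosome 9 from 81628291 to 81633828, minus strand) was at 0.447, 0.680, 0.349 and 0.928 FPKM in the WT libraries and at 1.16, 0.793, 1.49 and 0.543 in the 5xFAD libraries. 5xFAD-3 and 5xFAD-1 were highest and the groups overlapped (0.601 ± 0.259 against 0.995 ± 0.414, SD, n = 4 each). Without the filter the log2 fold change was 0.64 (95% interval -0.24 to 1.51, adjusted p = 0.714 from limma). Its antisense neighbour D430036J16Rik was at 0 to 0.464 FPKM. Of all 14 serotonin receptor genes listed, 2 (Htr2c and Htr2b) had a mean of at least 1 FPKM. The other 12 stayed below it, Htr5b was at 0 in every library, and Htr3a, the ion channel subunit, had the highest mean among those that were not members (0.355 FPKM).

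The monoamine oxidases were the only breakdown enzymes among the members. Maob prefers phenylethylamine and Maoa prefers serotonin as substrate, and the genes lie tail to tail on chromosome X (Maoa, ENSMUSG00000025037.6, from 16619698 to 16687818 on the plus strand, and Maob, ENSMUSG00000040147.14, from 16709282 to 16817366 on the minus strand). Maob was at 21.3, 47.4, 11.96 and 47.4 FPKM in the WT libraries and at 9.79, 31.3, 22.9 and 35.0 in the 5xFAD libraries. Its lowest libraries were 5xFAD-1 and Normal-22, as for Htr2c, and the groups overlapped. The means were 32.0 ± 18.2 and 24.7 ± 11.2 (SD, n = 4 each), a log2 fold change of -0.30 (SE 0.53, 95% interval -1.51 to 0.90, adjusted p = 0.88 from limma). Without 5xFAD-1 it was 0.09 (adjusted p = 0.976), without Normal-22 it was -0.70, and without both it was -0.31.

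Maoa varied little between libraries. It was at 7.69, 7.59, 5.34 and 6.52 FPKM in the WT libraries and at 8.57, 7.21, 7.62 and 5.19 in the 5xFAD libraries. Normal-22 and 5xFAD-21 were lowest, and the groups overlapped over most of their range. The means were 6.79 ± 1.10 and 7.15 ± 1.43 (SD, n = 4 each), a log2 fold change of 0.07 (SE 0.19, 95% interval -0.36 to 0.49, adjusted p = 0.931 from limma), whose sign changed without 5xFAD-1 (-0.03) and without Normal-22 (-0.04).

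Maob exceeded Maoa in 8 of 8 libraries. The ratio of their FPKM ranged from 1.14 in 5xFAD-1 to 7.27 in Normal-23, with a median of 3.67. The mean log2 ratio was 1.83 (SD 0.92, n = 8), and an exact two-sided sign-flip test gave p = 0.0078, the smallest that 8 libraries allow (adjusted p = 0.0156 over the 2 pairs of paralogs tested). Between genotypes the log2 ratio was 2.02 ± 0.84 in WT and 1.65 ± 1.08 in 5xFAD (SD, n = 4 each), a difference of -0.37 (exact two-sided permutation p = 0.629, adjusted p = 1 over the 2 pairs).

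The genes nearest to the oxidases in pattern differed between the pair. For Maoa they were Cd302 (r = 0.990), a lectin receptor, St6gal1 (0.982), a sialyltransferase, and S100a11 (0.979), a calcium-binding protein. For Maob they were Rapsn (0.978), which clusters acetylcholine receptors, Hspb8 (0.969), a small heat shock protein, and Bhmt (0.969), an enzyme of homocysteine metabolism. For Htr2b they were Sgtb (0.959), Rmdn1 (0.955) and Mrpl1 (0.951). Maoa, Htr2b and Slc18a2 shared the same lowest pair of libraries, Normal-22 and 5xFAD-21. So did 10 of 10 endothelial markers, 9 of 12 meningeal fibroblast markers and 7 of 10 smooth muscle and pericyte markers. The pair was not particular to these lists. It was lowest for 6 of 11 mast cell, 6 of 10 osteoblast and osteocyte, 5 of 8 microglia and macrophage and 4 of 9 astrocyte markers. For platelet and megakaryocyte markers it was 1 of 10, and for pinealocyte markers 1 of 18. Summed endothelial markers, led by Egfl7 and Emcn, ranged from 84.8 to 258 FPKM in WT and from 74.1 to 168 in 5xFAD. The part of these cells in the values of Maoa, Htr2b and Slc18a2 was not tested.

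Slc6a4 and Slc18a2, the pair that platelets and mast cells use to take up and store serotonin, were both highest in Normal-11 and lowest in Normal-22. Slc6a4 (ENSMUSG00000020838.12, chromosome 11 from 76998603 to 77032340, plus strand) was at 1.81, 1.01, 0.0884 and 0.398 FPKM in the WT libraries and at 0.628, 0.659, 0.547 and 0.810 in the 5xFAD libraries. The spread was wide in WT and narrow in 5xFAD, with 0.826 ± 0.757 against 0.661 ± 0.110 (SD, n = 4 each), and all 5xFAD values lay inside the WT range. These values stood for about 3 fragments in Normal-22 and 64.4 in Normal-11. The log2 fold change was 0.18 without the filter (95% interval -1.30 to 1.65, adjusted p = 0.947 from limma), and it was -0.43 without Normal-22.

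Slc18a2 (ENSMUSG00000025094.7, chromosome 19 from 59260896 to 59296012, plus strand) was at 1.11, 0.617, 0.0828 and 0.372 FPKM in the WT libraries and at 0.256, 0.359, 0.384 and 0.163 in the 5xFAD libraries. Normal-11 and Normal-21 were highest, and the 5xFAD values lay inside the WT range. The means were 0.547 ± 0.437 and 0.291 ± 0.102 (SD, n = 4 each), a log2 fold change of -0.46 without the filter (95% interval -1.70 to 0.78, adjusted p = 0.82 from limma), which became -0.97 without Normal-22 and -0.06 without Normal-11. About 4.4 fragments in Normal-22 and 62.5 in Normal-11 lay behind these values.

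Markers of both cell types had their highest and lowest sums in the libraries where this pair was highest and lowest. Of 11 mast cell markers, 9 were highest in Normal-11, while 5 were lowest in Normal-22 and 5 in 5xFAD-21. Their sum was 89.7, 32.6, 7.68 and 18.2 FPKM in the WT libraries and 22.1, 24.0, 17.4 and 10.5 in the 5xFAD libraries. In 5xFAD-21 the mast cell sum and Slc18a2 were the lowest of the 5xFAD group, but Slc6a4 was the highest. Cma1 and Mcpt4, the mast cell chymases, led that list. Of 10 platelet and megakaryocyte markers, 4 were highest in Normal-11 and 8 lowest in Normal-22, and their sum was 88.1, 73.7, 23.3 and 45.2 FPKM in WT and 47.0, 67.1, 44.7 and 59.3 in 5xFAD, with the chemokines Pf4 and Ppbp on top. The low library of both sums was the low library of both members. Other lists shared the high library, since 8 of 10 endothelial, 8 of 10 smooth muscle and pericyte and 8 of 10 osteoblast and osteocyte markers were highest in Normal-11. Of these, 2, 1 and 1 were lowest in Normal-22 and 8, 8 and 6 in 5xFAD-21. Pinealocyte markers went the other way, since 10 of 18 were lowest in Normal-11 and 11 were highest in Normal-22. The part of any of these cell types in the values of Slc6a4 and Slc18a2 was not tested. Among markers of serotonergic neurons, Fev, their defining factor, was at 0 in 7 libraries and at 0.0906 FPKM in Normal-21. Gata3 (0.420 FPKM in Normal-11 and 0.0741 in Normal-22) and En1 (0.405 and 0, also 0 in 5xFAD-21) were highest and lowest in the same libraries as the pair. Lmx1b was at 3.61 and 4.25 FPKM in Normal-11 and Normal-21 and at 1.64 in Normal-22. Other genes of that list went the other way. Gata2 (6.28 FPKM in Normal-11 and 11.8 in Normal-22), Ddc (105 and 247) and the member Tph2 (0 and 0.0919) were highest in Normal-22. Ddc is also used by pinealocytes, and Tph2 stood for 0 to 3 fragments a library. Of the 9 genes in the list, Slc6a4 included, 3 were highest in Normal-11 and 3 in Normal-22. The part of serotonergic neurons in the values was not tested either. Markers of sympathetic neurons, whose fibres enter the gland, summed to 0.270 to 0.554 FPKM in WT and 0.773 to 1.93 in 5xFAD, with Npy (up to 1.36 FPKM) and Th on top and Hand2 at 0 throughout. Slc6a2 (mean 0.0936 FPKM in WT and 0.0620 in 5xFAD) went the other way, and Dbh was about equal (0.0326 and 0.0322). All were near the floor and 0 of these 7 markers passed the filter, so this difference was not tested.

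**Figure D4:**
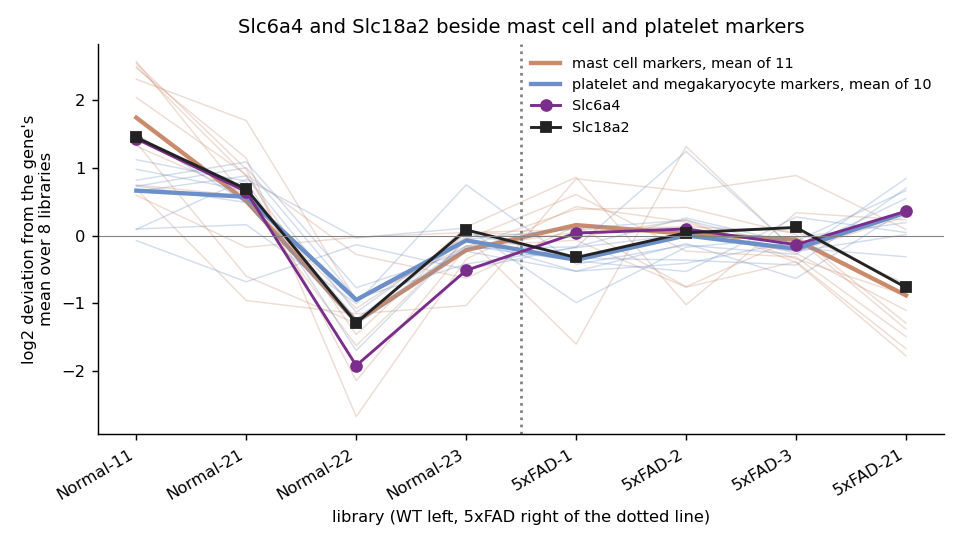
Log2 deviation of Slc6a4, Slc18a2, 11 mast cell markers and 10 platelet and megakaryocyte markers (thin lines, thick lines their means) from each gene's mean over the 8 libraries. Both members and both marker means are highest in Normal-11, and the members are lowest in Normal-22.

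The 250 bases before the RefSeq starts of this pair are shown because both genes were highest and lowest in the same libraries (GRCm38.p6, plus strand, Slc6a4 at chr11:76998347-76998596 and Slc18a2 at chr19:59260628-59260877). Capitals mark matches to the motifs listed for Htr2c on either strand. Slc6a4 held GGGCGG 3 times, and Slc18a2 held it 2 times and AGATAA 1 time.
Slc6a4: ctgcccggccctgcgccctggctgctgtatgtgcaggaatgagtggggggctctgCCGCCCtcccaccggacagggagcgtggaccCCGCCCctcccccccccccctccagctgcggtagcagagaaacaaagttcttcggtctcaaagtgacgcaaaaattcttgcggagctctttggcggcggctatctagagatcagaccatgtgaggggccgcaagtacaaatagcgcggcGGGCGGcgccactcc
Slc18a2: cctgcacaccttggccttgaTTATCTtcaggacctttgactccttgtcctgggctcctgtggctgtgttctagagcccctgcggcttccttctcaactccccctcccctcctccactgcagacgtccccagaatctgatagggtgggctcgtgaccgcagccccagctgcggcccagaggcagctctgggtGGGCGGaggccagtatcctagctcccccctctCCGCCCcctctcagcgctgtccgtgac
The shares of all windows with these letters are those given for Htr2c, and a match describes the letters only.

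Slc18a1, the vesicular transporter of endocrine cells, followed another order than Slc18a2. The gene (ENSMUSG00000036330.12, chromosome 8 from 69037711 to 69089235, minus strand) was at 0.578, 0.462, 0.409 and 0.661 FPKM in the WT libraries and at 0.176, 0.387, 0.401 and 0.552 in the 5xFAD libraries. The first 3 of the 5xFAD values lay below every WT library and that of 5xFAD-21 within the WT range. Those of 5xFAD-2 and 5xFAD-3 lay only just below Normal-22. They stood for about 20.3 and 21.3 fragments, against 15.6 in Normal-22, so this order is not resolved at such depth. The means were 0.527 ± 0.114 and 0.379 ± 0.155 (SD, n = 4 each), a log2 fold change of -0.44 without the filter (95% interval -1.14 to 0.27, adjusted p = 0.757 from limma), from about 9.6 to 23 fragments a library. Without 5xFAD-1, the lowest library, it was -0.19. Its start overlaps that of Atp6v1b2, a proton pump subunit gene on the other strand at 108 to 199 FPKM. As for Htr2b, reads of both genes may be mixed there. Slc18a1 exceeded Slc18a2 in 5 of 8 libraries, with ratios from 0.519 to 4.94, and neither the mean log2 ratio of 0.26 (exact sign-flip p = 0.406) nor its difference between genotypes of 0.03 (exact permutation p = 1) passed its test.

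Tph2 was near absent. The gene (ENSMUSG00000006764.8, chromosome 10 from 115078641 to 115185022, minus strand) was at 0, 0, 0.0919 and 0.0345 FPKM in the WT libraries and at 0.0422, 0.0442, 0.0437 and 0 in the 5xFAD libraries, which stood for 0 to 3 fragments each. No difference between groups was detectable at this depth. Its paralog Tph1, the hydroxylase of the pineal gland and gut, was at 643, 613, 1236 and 968 FPKM in the same WT libraries and at 1630, 1900, 741 and 737 in the 5xFAD libraries (log2 fold change 0.46, SE 0.39, adjusted p = 0.763 from limma). The levels of Tph1 overlapped between the groups, and no ratio to Tph2 was tested because Tph2 is at 0 in 3 libraries.

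The titles number the libraries in 2 sets, up to 11 (Normal-11 and all 5xFAD libraries but 5xFAD-21) and in the twenties (the other 4), and what the numbers stand for is not given. Within a set, 1 library of a group faced 3 of the other. Slc18a2 was lower in 5xFAD in both sets, by log2 differences of -1.50 and -0.59. Maob (-0.15 and 0.22), Htr2c (-2.56 and 0.51), Slc6a4 (-1.42 and 0.95), Slc18a1 (-0.74 and 0.12), Htr1b (1.15 and -0.15), Htr2b (0.41 and -0.15), Maoa (0.02 and -0.30) and Tph2 (0.52 and -0.46) had opposite signs in the sets. No member other than Slc18a2 thus kept its direction within both sets.

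In the rest of the serotonin pathway no gene passed the test either. Of 55 further genes listed, 38 passed the filter and 0 had an adjusted p under 0.05, against 0.0382% of all genes tested. An unadjusted p under 0.05 was found for 1 of the 38, against 7.95% of all genes tested. It was Plcb4, a phospholipase C downstream of these receptors (log2 fold change 0.26, adjusted p = 0.624 from limma). The median of the 38 was 0.11, beside -0.01 over all genes tested. The counts of directions below were not tested. In the synthesis list 9 genes were tested and 8 had a value above 0, led in level by Tph1, by Ddc, the decarboxylase that makes serotonin (0.19), and by Gch1, the first enzyme of the hydroxylases' cofactor synthesis (0.14). The pinealocyte markers, which share Tph1 and other genes with this list, had a median of 0.26 with 11 of 17 above 0, beside 0.27 for the synthesis list, and their part in it was not tested. In the breakdown list, which includes the members Maoa and Maob, 8 of 12 were above 0 with a median of 0.06. Its most abundant genes were the aldehyde reductases Akr1a1 (0.05) and Akr1b3 (0.29) and the aldehyde dehydrogenase Aldh2 (0.35), which act on the aldehyde that the oxidases form. Among 16 signalling partners the median was 0.05, and the most abundant were the G protein subunits Gnas (-0.04) and Gnai2 (0.11) and S100a10 (-0.10), which binds serotonin receptors. Of the uptake and vesicle transporters 3 were tested, and beside Slc29a4 they were Slc18b1 (0.12), a vesicular polyamine transporter, and Slc22a2 (0.61), an organic cation transporter.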

How the data were processed

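RNA-seq libraries were made from ribosomal RNA-depleted total RNA of pooled pineal glands with a stranded kit and sequenced as paired ends. The deposited values are FPKM per gene, which the authors computed with Trimmomatic, STAR (mm10, GRCm38.p6) and Cuffnorm on GENCODE M17, without pooling libraries. Tool versions and the library normalization are not given in the sources used here. Whole read counts were not used here, and approximate fragments were read from the steps of low FPKM values.

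Of 53710 gene IDs, 53616 matched GENCODE M21, and protein-coding genes were those so classed in the table. Genes with a mean of at least 1 FPKM were tested on log2(FPKM + 0.1) by linear models with a mean-dependent prior variance (limma 3.58.1, R 4.3.3), 5xFAD minus WT, with Benjamini-Hochberg adjustment over 13094 genes. A fold change on this scale understates the change of low genes. Replicates are pools of glands, and no 2 libraries held identical values. Paralog ratios were compared by exact permutation over 70 arrangements and 256 sign flips in Python 3.11.15 with scipy 1.17.1. The fit was tested on simulated data.

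The members and lists were chosen with earlier results of these data known. Named were all members, the 3 most abundant genes of each pathway list, the 3 genes with the highest Pearson r to each tested member, the 2 most abundant genes of marker lists and markers at 0 throughout, without a marker that is not reported here. Plcb4, Htr3a, Fev, Gata2, Gata3, En1, Lmx1b, Slc6a2, Dbh, the sex check and the genes that overlap members were named after their values were seen. As alternatives, the pseudocount was 0.01 or 1, the filter was dropped or raised to 5 FPKM, and use was made of median-ratio scaling, quantile normalization, the numbering set or the replicate number in the model, removal of a GC trend, all listed genes, and leaving out each library. Promoter windows came from RefSeq tables of GRCm38.p6, in which 7 of 9 members matched.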

Additional observations from a re-analysis of the deposited data

Results flagged for a closer look

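Among 22 groups of 4 libraries checked for a library apart, of which chance gives about 1 in 20, 2 had one. Htr2c in 5xFAD-1 lay below the other 5xFAD libraries by 0.919 of the group's range on the log2 scale. Tph2 in 5xFAD-21 lay below the other 5xFAD libraries by 0.96 of the range, a gap between 0 and about 2 fragments.

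Small RNA genes inside Htr2c lie outside the comparisons above. Snora35 was at 92.2 FPKM in 5xFAD-21 and 60.0 in 5xFAD-2 and at 0 in the other 6 libraries, all 4 WT libraries included. Mir764 was at 628 FPKM in 5xFAD-21 and at 0 elsewhere. Both genes are short, so that few fragments give a high FPKM, and neither difference was tested.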

How the results depend on the processing

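The number of members called was 0 in all 19 alternatives. Of 150 alternative values of the members' fold changes, 136 kept their direction and 14 did not. The 136 include values that could not turn. Dropping or raising the filter, testing all listed genes and the replicate block leave the fold change itself unchanged. The number of genes called among all tested was 5, 8 without the filter and 8 over all listed genes, and 4 to 94 when 1 library was left out, the 94 without Normal-22. It was 23 without Normal-22 and 5xFAD-1 together, an alternative added after seeing the data. Signs turned for Slc6a4 with a pseudocount of 1 (-0.046), with the numbering set as a term (-0.24), without Normal-22 (-0.43) and without that library and 5xFAD-1 (-0.41), for Maoa with the numbering set (-0.14), without a GC trend (-0.0023), and without Normal-22 and 5xFAD-1 together (-0.14), and for Maob with the numbering set (0.034). When 1 library was left out, the range was -0.43 to 0.68 for Slc6a4, -0.043 (without Normal-22) to 0.21 for Maoa, -0.70 to 0.087 (without 5xFAD-1) for Maob, -1.92 to 0.077 (without 5xFAD-1) for Htr2c and -0.066 (without Normal-11 or Normal-21) to 0.25 for Tph2. Without a change of sign, it was -0.61 to -0.19 for Slc18a1, -0.97 to -0.06 for Slc18a2, 0.43 to 0.86 for Htr1b and 0.16 to 0.43 for Htr2b. Tph2 was at 0.44 with a pseudocount of 0.01. The genotype difference of the Slc18a1 to Slc18a2 log2 ratio (0.03) was -0.072 with a pseudocount of 0.01, 0.73 within numbering sets (exact permutation p = 0.25) and -0.33 to 0.44 when 1 library was left out. That of Maoa to Maob (0.37) was -0.18 within numbering sets and -0.12 to 0.73 when 1 library was left out. The cause of these changes was not tested.

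Replicate numbers here follow the order of libraries within each group and not the titles. Libraries with the same replicate number had deviations with correlations of mixed sign (-0.04, 0.21, -0.34 and 0.24). Normal-21 and 5xFAD-21, which share a number in their titles, had a correlation of -0.31. No pairing of the samples was assumed. With the replicate block 4 genes and 0 members were called. Each block holds 1 library of each group, so the block cannot change a fold change or a ratio difference, only its p. The values of Htr2c (-1.37, adjusted p = 0.851 from limma) and of the Slc18a1 to Slc18a2 and Maoa to Maob ratios (0.03 and 0.37) are therefore no check of stability. Quantile normalization, the GC correction, the stricter filter and the test over all listed genes gave no value for the 5 members under 1 FPKM. Depth limited Tph2 and the Normal-22 values of Slc6a4 and Slc18a2 to a few fragments.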
